A study of Rattus norvegicus with 4 samples.

Results

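Transcripts of 9 complement genes were followed in NR8383 rat alveolar macrophages exposed to iron oxide particles: the C1q chains C1qa, C1qb and C1qc, the central component C3, properdin (Cfp) and factor B (Cfb) of the alternative pathway, the C1 inhibitor Serping1, and the anaphylatoxin receptors C5ar1 and C3ar1. The genes were taken by name, and every array probe whose RefSeq accession maps to one of them was used, which gave 10 probes for 9 of the 16581 named genes on the array. C3ar1 had 2 probes and the other genes 1 each. On each array the C1qa and C1qb probes had 10 spots, and every other probe of these genes had 1. NR8383 is a macrophage line established from the lung lavage of a normal rat, grown partly attached and partly floating, and the cells had been passaged 20 times. In all samples used here the line had been given Fe2O3 (NRCWE018) at 2 µg/mL, and RNA was taken after 4 h. The 4 biological replicates had 1 single-colour Agilent array each, all on 1 slide, so differences between cultures and between slide positions cannot be separated. The study also had cultures without particles, which were not analysed here, so the values are levels in exposed cells and differences between exposed cultures, never an effect of the particles.

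Complement is a cascade of plasma and cell-derived proteins that marks particles and microbes for uptake. The classical pathway starts when C1q, built from the A, B and C chains, binds a surface and its proteases C1r and C1s become active. All pathways meet at C3, whose cleavage coats the surface, and the alternative pathway amplifies that step with factor B, factor D and properdin. The fragments C3a and C5a are read by receptors on phagocytes. The liver supplies most circulating components, but tissue macrophages are a known source of C1q, properdin, factor B and C3.

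Levels are log2 processed signal minus the 75th percentile of the same array, so that 0 is the array's 75th percentile and a step of 1 is a factor of 2. The 75th percentile was between 756.5 and 1082 signal units, lowest on replicate 4, and the median local background between 41 and 46. A probe counted as above background on an array where most of its usable spots carried the scanner software's mark for a signal well above background. The dimmest such spot on each array had a processed signal between 20.7 and 23.7. Probes bind their targets with unequal strength, so each gene is compared with itself across arrays and not with other genes. Of 9 macrophage markers, 7, among them Cd68, Csf1r and Spi1, were above background on all 4 arrays, while Adgre1 and Marco were not above it on any. Of 28 markers of other cell types, 7 were above background on all 4 arrays. These were 3 of 4 for endothelium (Pecam1, Cdh5 and Vwf), a share close to that of the macrophage markers, 2 of 4 for neutrophils (S100a8 and Camp), 1 of 4 for fibroblasts (Dcn) and 1 of 3 for T cells (Cd3d). None of the 6 lung epithelium, 4 hepatocyte, 2 mast cell and 1 B cell markers was above it on any array. The share on all 4 arrays over every named gene was 50.5%. The part of other cell types in the complement values was not tested.

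Of the 9 genes, 4 were above background on all 4 arrays, a share of 44.4%, beside 50.5% of all 16581 named genes. These 4 were Cfp, Cfb, Serping1 and C5ar1. C3 was above background on 3 arrays and C3ar1 on 2, and the 3 C1q genes on none. In RNA from whole cultures, few cells with a transcript and little transcript in each cell cannot be told apart.

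**Figure D1:**
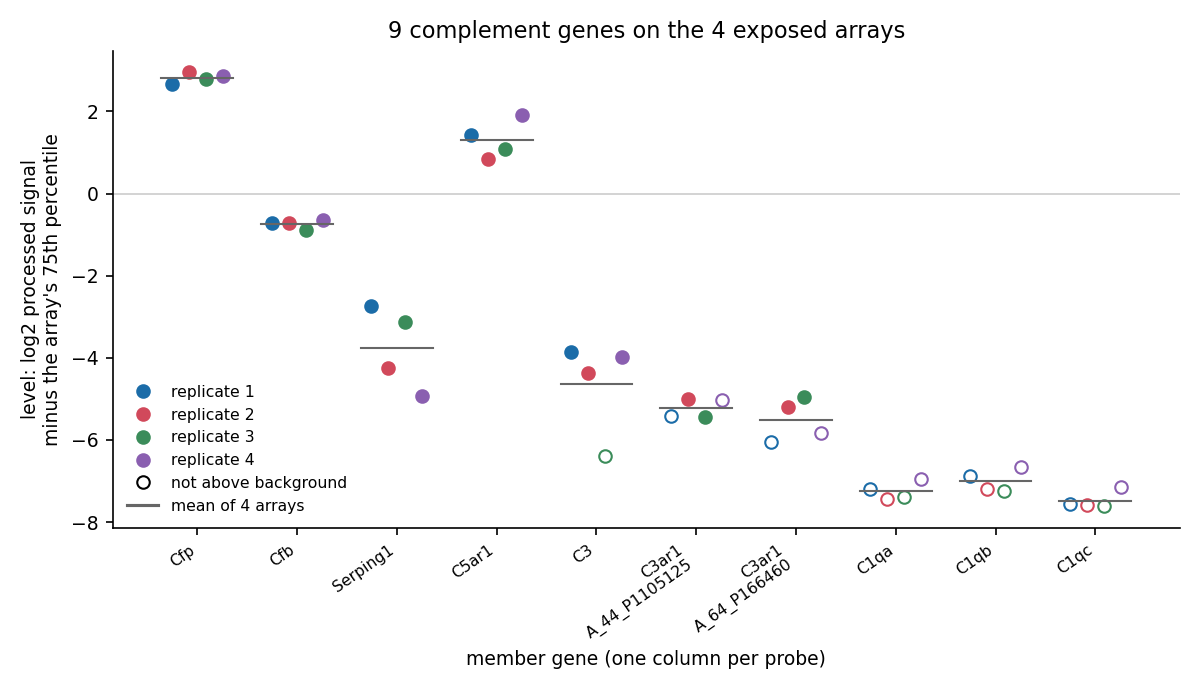
Levels of the 10 probes of the 9 complement genes on each of the 4 arrays, as log2 processed signal minus the array's 75th percentile. Each point is 1 array, open points were not above background, and the horizontal bar is the mean of 4 arrays. The 4 arrays span 0.28 for Cfp and 0.27 for Cfb, Serping1 spans 2.18 and C3 spans 2.53 with its lowest point not above background, and all C1q points are open.

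The 250 bases before the annotated start are given for C1qa and C1qb (above background on no array), C3 (on 3) and Cfp (on all 4). Whether these bases bear on detection was not tested. The RefSeq promoter table of the GRCr8 assembly held 5 of the 9 genes, the fifth being C3ar1. Sequences read 5′ to 3′ on the gene's strand, and capitals mark matches on either strand to 4 short motifs: GAGGAA, a core bound by the myeloid factor PU.1; TGCTGA, a core bound by MAF factors; TTGCNNAA, bound by C/EBP factors; and GAAANNGAA, the core of the interferon-stimulated response element. The motifs were chosen with the detection results known.
C1qa, chr5:154419934-154420183, minus strand: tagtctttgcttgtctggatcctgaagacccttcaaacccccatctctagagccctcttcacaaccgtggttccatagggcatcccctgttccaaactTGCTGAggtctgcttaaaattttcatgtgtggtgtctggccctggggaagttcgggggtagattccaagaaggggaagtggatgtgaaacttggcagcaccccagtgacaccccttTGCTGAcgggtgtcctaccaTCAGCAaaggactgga
C1qb, chr5:154407828-154408077, minus strand: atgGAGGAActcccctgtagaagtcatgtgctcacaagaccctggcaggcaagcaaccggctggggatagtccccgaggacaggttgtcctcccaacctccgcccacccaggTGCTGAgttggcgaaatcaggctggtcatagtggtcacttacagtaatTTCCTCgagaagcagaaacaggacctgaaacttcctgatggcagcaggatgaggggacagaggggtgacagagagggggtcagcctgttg
C3, chr9:2201340-2201589, minus strand: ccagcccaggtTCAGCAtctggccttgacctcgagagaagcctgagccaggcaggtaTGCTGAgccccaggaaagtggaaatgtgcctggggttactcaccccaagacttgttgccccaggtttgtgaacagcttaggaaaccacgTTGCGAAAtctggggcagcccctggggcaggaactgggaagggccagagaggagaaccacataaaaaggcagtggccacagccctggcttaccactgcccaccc
Cfp, chrX:3715301-3715550, plus strand: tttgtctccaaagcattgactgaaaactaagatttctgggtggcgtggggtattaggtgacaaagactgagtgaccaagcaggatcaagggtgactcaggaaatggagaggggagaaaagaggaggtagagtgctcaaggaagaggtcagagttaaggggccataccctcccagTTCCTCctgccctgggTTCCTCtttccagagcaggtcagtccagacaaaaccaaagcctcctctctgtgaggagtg

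C1qa held 3 matches to the MAF core, at 152, 36 and 16 bases before the start, and none to the other motifs. C1qb held 2 matches to GAGGAA and 1 to the MAF core. In C3 the capitals mark 2 MAF cores and 1 C/EBP match that begins 104 bases before the start. Cfp held 2 matches to GAGGAA, at 76 and 60 bases before the start. No printed sequence matched GAAANNGAA, and the C3ar1 sequence matched none of the 4. Among 33469 promoters of the same length, 23.3% held GAGGAA, 15.1% TGCTGA, 9.22% TTGCNNAA and 8.12% GAAANNGAA. No 2 of the motifs shared bases in these sequences. A match describes letters only and says nothing on binding.

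The C1q chains, which recognise antibody-coated and apoptotic surfaces, were at the floor of the array. The C1qa and C1qb probes are each printed as 10 spots per array, which gives 40 spots for each gene. Of the 40 C1qa spots, 1 was well above background, and that spot, at a processed signal of 43.8 on replicate 3, was also marked as an outlier among its repeats. Of the 40 C1qb spots none was. The median processed signal of the 10 C1qa spots was 5.74, 4.80, 6.33 and 5.68 on replicates 1 to 4, and that of the 10 C1qb spots 8.76, 6.88, 6.16 and 5.77. In 21 of 40 C1qa spots and 17 of 40 C1qb spots the processed signal did not exceed its own spot error. In each of these the signal lay just under the error, such as 5.07 beside 5.08 for C1qa on replicate 1. The medians of 4.80 for C1qa on replicate 2 and 5.77 for C1qb on replicate 4 lie among such spots. The brightest C1qb spot reached 25.6, on replicate 1, without being marked as well above background.

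**Figure D2:**
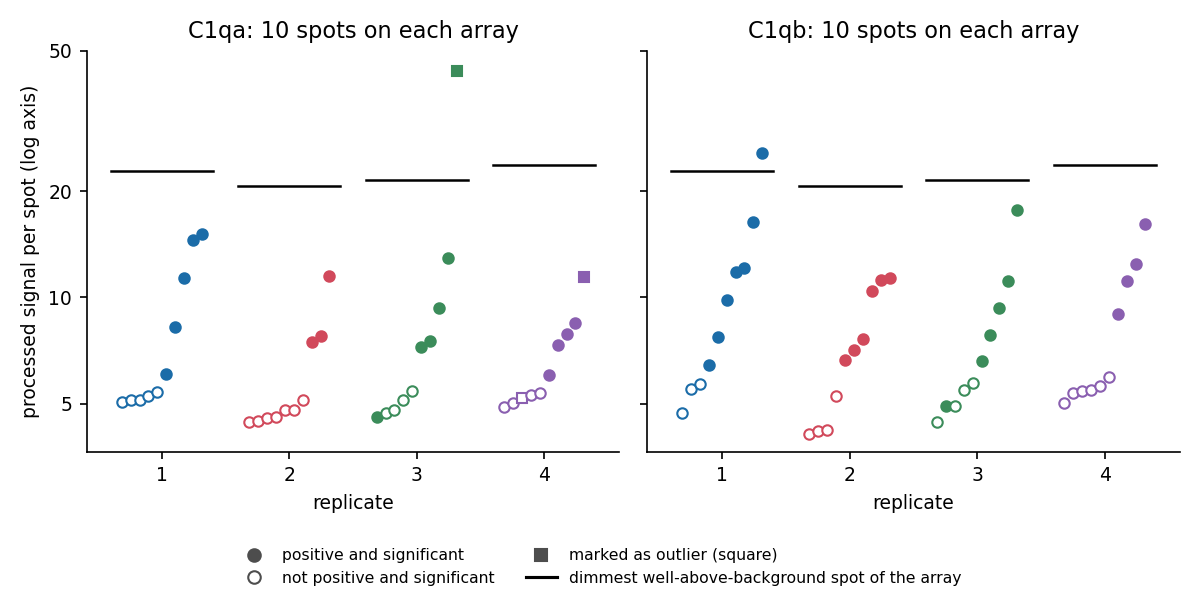
Processed signal (log axis) of each of the 10 spots of C1qa (left) and C1qb (right) on each array, ordered by signal within an array. Filled points were positive and significant, squares were marked as outliers, and the black line is the dimmest spot of any probe that was well above background on that array. All but 1 spot of C1qa and 1 of C1qb lie under the line.

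C1qc, with 1 spot per array, had a processed signal of 5.67, 5.09, 5.53 and 5.32 on replicates 1 to 4, each close to its spot error of 5.68, 5.12, 5.54 and 4.99. On replicates 1 to 3 the signal lay just under the error, as in the C1qa and C1qb spots counted above. Likeness between these unscaled signals therefore does not measure C1qc in the cultures. The positive and significant mark, a weaker criterion, was given to 19 of the C1qa spots, 23 of the C1qb spots and 1 of the 4 C1qc spots. The C1qa and C1qb spots without it were those whose signal did not exceed the spot error, so these counts are not separate evidence. Scaled levels of the 3 genes were highest on replicate 4, at -6.94 for C1qa, -6.66 for C1qb and -7.15 for C1qc. The same was true of 73.5% of all 25457 probes above background on no array, whose median levels on replicates 1 to 4 were -7.59, -7.66, -7.70 and -7.15. No order between the cultures was therefore read from the C1q values.

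Serping1 encodes the C1 inhibitor, a serpin that blocks C1r, C1s and the lectin pathway proteases. Its processed signal was 159.97, 52.0, 122.8 and 24.8 on replicates 1 to 4, with spot errors of 16.9, 7.06, 13.3 and 5.48. The corresponding levels were -2.74, -4.24, -3.14 and -4.93, a mean of -3.76 ± 1.003 (SD, n = 4). Replicates 1 and 3 were high, replicates 2 and 4 low, and the highest culture was 4.55-fold above the lowest. Each of these values rests on 1 spot. Without replicate 4 the range of the levels was 1.499 in place of 2.18. On replicate 4 the signal of 24.8 was just over that array's dimmest well-above-background spot, at 23.7. After normexp background correction the range over all 4 was 0.79. That correction was run with 50 units added to every signal, which by itself narrows the log range of dim probes.

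C3 is the component that all pathways cleave. Its processed signal was 73.9, 48.0, 12.9 and 48.0 on replicates 1 to 4. Replicate 3 was low and was the array on which C3 was not above background, with a spot error of 5.14. The levels were -3.86, -4.36, -6.39 and -3.98, so the 3 cultures above background lay within 0.50 of each other. Set against the dimmest well-above-background spot of replicate 3, replicate 1 was 3.47-fold higher. That spot is no strict upper limit, since unmarked spots can be brighter: on replicate 1 a C1qb spot at 25.6 was unmarked and the dimmest marked spot was 22.8. C3 had 1 spot per array. The measured levels span 2.53, or 1.04 after normexp background correction with the same 50 units added.

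Cfp and Cfb had the smallest spread of the 4 genes above background on all arrays. Properdin, encoded by Cfp, stabilises the C3 convertase and is the positive regulator of the pathway. Its processed signal was 6818, 7609, 7423 and 5489 on replicates 1 to 4. Its levels were 2.67, 2.95, 2.78 and 2.86, with a mean of 2.81 ± 0.12 (SD, n = 4) and a 1.22-fold ratio of highest to lowest. Factor B, encoded by Cfb, provides the protease part of that convertase. It had processed signals of 652.4, 601.1, 580.2 and 487.6, and levels of -0.72, -0.71, -0.90 and -0.63 (mean -0.74 ± 0.11 SD, n = 4). The lower unscaled signals of both genes on replicate 4 went with that array's lower 75th percentile, and after scaling replicate 4 was not the lowest for either. The error that the scanner software gives to these spots was 10.0% for Cfp and 10.0 to 10.1% for Cfb. It was also 10.0% for the C5ar1 spots, so it does not set Cfp and Cfb apart.

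C5ar1, the receptor through which C5a attracts and activates phagocytes, was well above background in every culture. Processed signals were 2880, 1757, 2281 and 2860 on replicates 1 to 4. Levels were 1.43, 0.84, 1.08 and 1.92, with a mean of 1.31 ± 0.47 (SD, n = 4). Replicate 4 was highest and replicate 2 lowest, a 2.12-fold ratio. Without replicate 4 the range of its levels fell from 1.08 to 0.59. Serping1, in contrast, was lowest on replicate 4.

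C3ar1, the C3a receptor, was near the detection limit with both of its probes. The probe to NM_032060 had processed signals of 16.2, 27.0, 35.1 and 13.2 on replicates 1 to 4, and the probe to XM_006237314 had 24.99, 30.6, 24.8 and 23.3. Both probes were above background on replicates 2 and 3 and not on replicates 1 and 4. The levels were -6.05, -5.19, -4.94 and -5.84 for the first and -5.42, -5.01, -5.44 and -5.02 for the second. On the arrays where it was not above background, a level has no order against the others. Spot errors were between 17.8% and 38.1% of the signal.

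Whether the exposed cultures differed in these genes more than probes of like level do was tested with limma, which set each probe's variance over the 4 arrays against a prior variance for its level. Of the 16659 probes above background on all 4 arrays, 28 passed at an adjusted p of 0.05, or 0.168%. None of the 4 complement gene probes tested passed (0 of 4), and 2 of them, Serping1 and C5ar1, had an unadjusted p under 0.05, as did 5.91% of all probes tested. Serping1 had an SD of 1.003 where the prior SD for its level was 0.27 (limma adjusted p = 0.176). C5ar1 had an SD of 0.47 where the prior SD was 0.17 (limma adjusted p = 0.408). Cfp (0.12 and 0.16) and Cfb (0.11 and 0.20) had SDs below the prior SD, each with a limma adjusted p of 0.998. C3, C3ar1 and the C1q genes were left out of this test by the filter on dim probes. Without that filter, Serping1 (limma adjusted p = 0.000403), C5ar1 (0.02) and C3 passed, 3 of the 10 probes, beside 872 of all 45598 probes, or 1.91%. For C3 that setting uses a value not above background. Serping1 and C5ar1 kept the same levels and SDs in it. The prior and the adjustment were computed over all 45598 probes, of which 25457 were above background on no array. Their passes therefore rest on the changed prior and adjustment, not on other values of these genes.

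**Figure D3:**
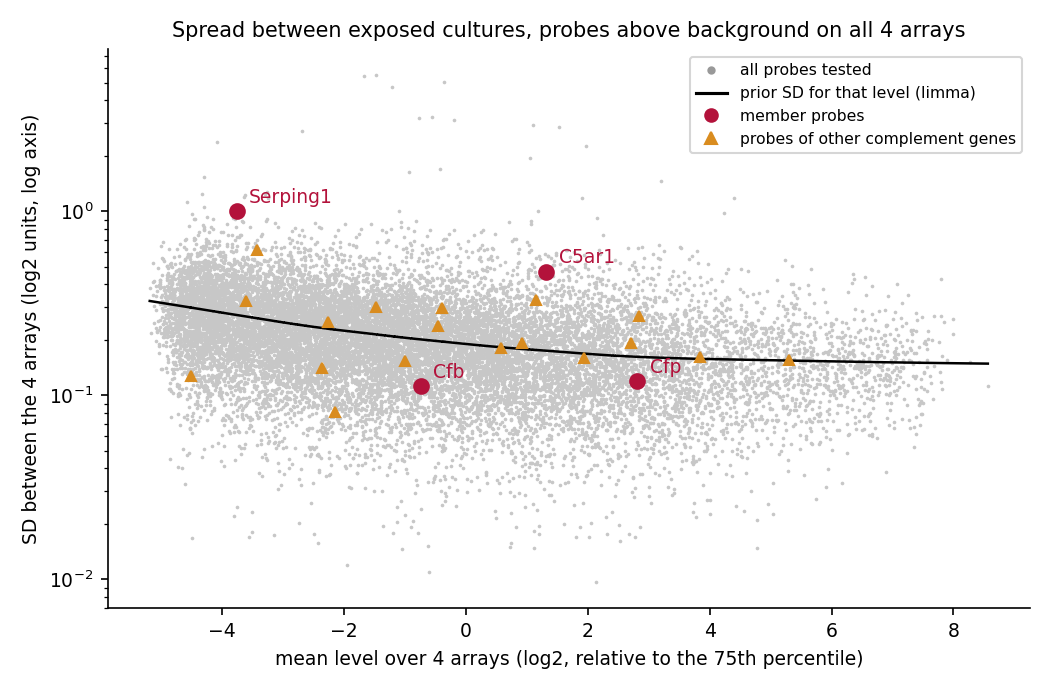
SD between the 4 arrays (log2 units, log axis) against mean level for the 16659 probes above background on all 4 arrays (grey), with the prior SD fitted by limma (line), the 4 member probes (red circles) and probes of other complement genes (orange triangles). Serping1 and C5ar1 lie above the line, with SDs of 1.003 and 0.47, and Cfp and Cfb lie below it.

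The rest of the complement system was described in the same way. Of 45 other complement genes described here, 40 were on the array under a matched accession, and 13 of these (32.5%) were above background on all 4 arrays, beside 50.5% of named genes. Another 7 were above it on some arrays and 20 on none, beside 6.45% and 43.0% of named genes. With the positive and significant mark the 13 became 20, beside 59% of named genes, and with 1 array sufficing also 20, beside 57%. Colec11, Itgax, C5, C7 and C8g were the 5 without a matched accession. Where a gene had several probes, the probe above background on the largest number of arrays, then the brightest, stands for it.

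In the alternative pathway, Cfd, the protease factor D that cleaves factor B, was above background on every array at 2.71 ± 0.19 (SD, n = 4), as were Cfp and Cfb. On the classical and lectin side, 3 of 14 genes were above background on all arrays, beside 50.5% of named genes. These were C2 (1.15 ± 0.33), the protease partner of C4; the ficolin Fcna (-1.004 ± 0.15), a lectin pathway recognition protein; and Masp1 (-4.51 ± 0.13), a lectin pathway protease with 1 of 3 probes above background on all arrays. C1r, the protease that C1q activates, was above background on 3 arrays, with levels of -3.42, -3.46, -3.95 and -4.88 on replicates 1 to 4. Its partner C1s was above background on none, with 2 probes. C4b was above background on 3 arrays with 1 of its 2 probes, C4a on none, and the 2 genes are near-identical copies whose probes may not tell them apart. Mbl1 was above background on 1 array and Fcnb on 2. C1rl, Mbl2, Masp2, Colec10 and Colec12 were above it on none.

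Of the terminal pathway genes with a matched accession, C6, C8a, C8b and C9, which take part in the membrane attack complex, 0 of 4 were above background on any array. Over all named genes, 57% were above it on at least 1 array. C8b carried the weaker positive and significant mark on all 4 arrays, as did 59% of named genes. Among the 7 fluid-phase regulators described here, factor I (Cfi), the protease that inactivates C3b, was above background on 1 array and Cpn1 on 2. C4bpa, C4bpb, Cpn2, Clu and Vtn were above it on none. Of 6 membrane regulators, 3 were above background on all arrays, beside 50.5% of named genes. These were the decay accelerator Cd55 (-1.48 ± 0.30, with 4 of its 5 probes above background), Cd59b (0.57 ± 0.18), which blocks the membrane attack complex, and the rodent C3b regulator Cr1l (0.93 ± 0.19). Cd46 was above background on 1 array, and Susd4 and Csmd1 on none.

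Of 8 receptors, 6 were above background on all arrays, beside 50.5% of named genes. The complement receptor chains Itgam (-0.39 ± 0.30, and -2.26 ± 0.25 with its second probe) and Itgb2 (1.94 ± 0.16) together bind the C3 fragment iC3b. Both genes were above background on all arrays, as was Vsig4 (2.85 ± 0.27), a macrophage receptor for C3b and iC3b. The second C5a receptor, C5ar2, was at -0.46 ± 0.24 and -2.36 ± 0.14 with its 2 probes. C1qbp (5.31 ± 0.16) and calreticulin, Calr (3.84 ± 0.16), which bind C1q but have their main roles in mitochondria and the endoplasmic reticulum, were above background on all arrays too (SD, n = 4 throughout). Cr2, a B cell receptor for C3 fragments, and Cd93 were above background on none. Of the 59 probes of these other complement genes, the 18 above background on all 4 arrays entered the limma test of excess spread. Of these 0 passed and 1 had an unadjusted p under 0.05; the others, Cpn1 and Mbl1 among them, were not tested. The lowest adjusted p was 0.575, for a Cd55 probe that was lowest on replicate 4, followed by 0.852 for C2.

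**Figure D4:**
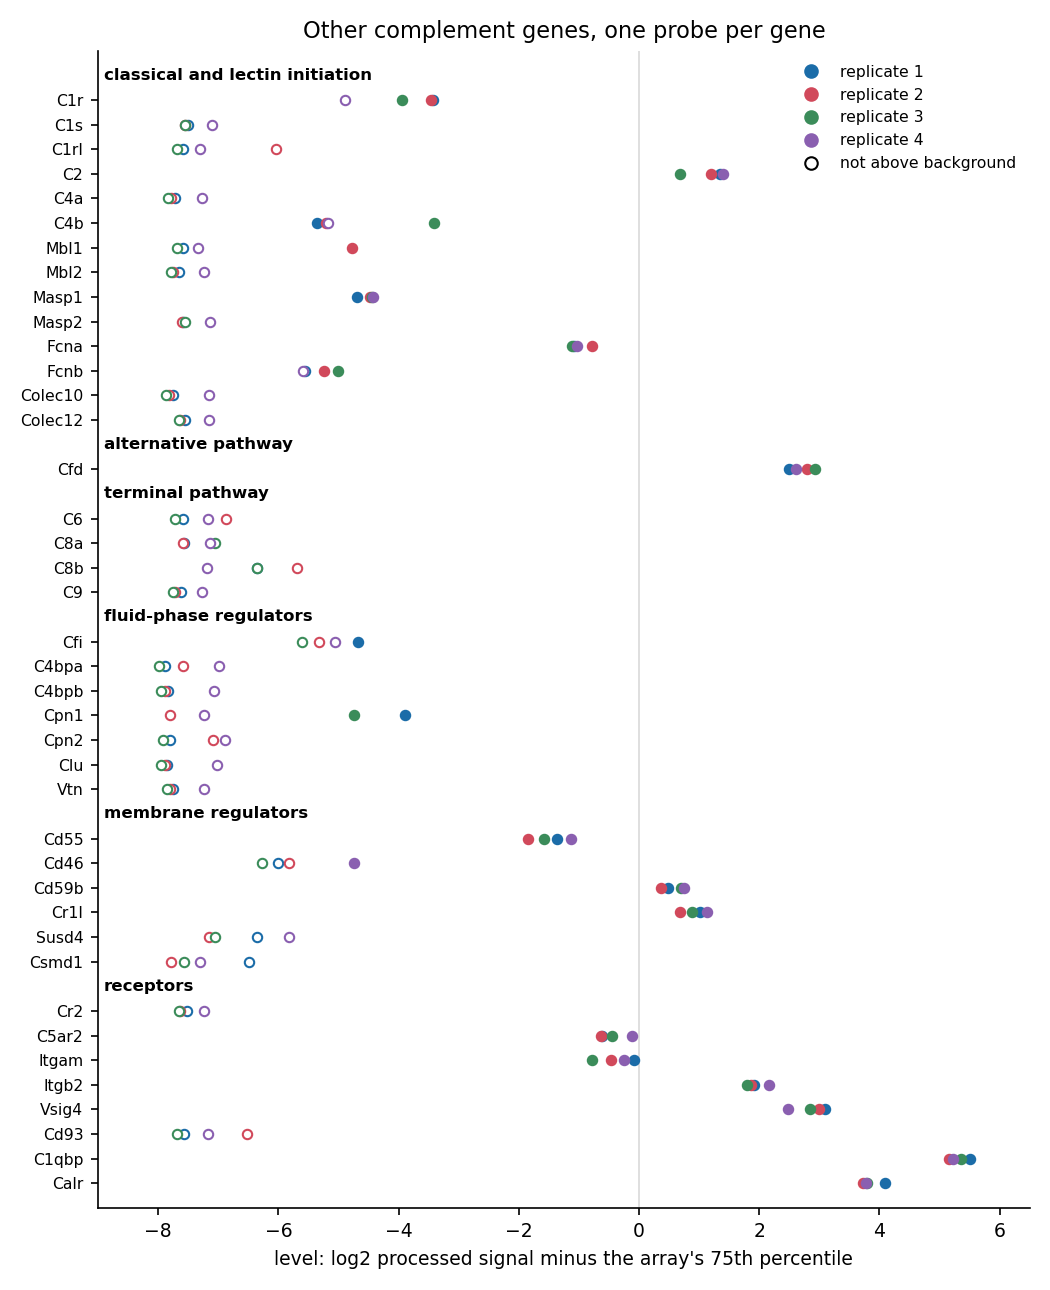
Levels of 40 other complement genes by role, 1 probe per gene, as log2 processed signal minus the array's 75th percentile. Each point is 1 of the 4 arrays and open points were not above background; levels of different genes are not comparable. Receptors have 6 of 8 genes filled on all arrays and the terminal pathway 0 of 4, beside 50.5% of all named genes. The roles hold few genes, and a difference between roles was not tested.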

How the data were processed

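Cy3-labelled cRNA from each exposed culture was read on its own rat expression array. Per the file headers, the authors extracted spot intensity with Agilent Feature Extraction 11.0.1.1, background-subtracted and detrended within the array, with no scaling between arrays. Other deposited columns used were the median spot and background intensity, the spot error, and 0 or 1 marks. Control spots were removed. Spots marked as outliers were dropped unless every spot of a probe was marked. Log2 signal was set against the array's 75th percentile and repeat spots were averaged. Accessions were matched without version to RefSeq symbols (GRCr8, names only, except the upstream sequences). Of 45598 probes, 21109 had a symbol, and the listed Cd59 was updated to Cd59b.

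Excess spread was tested with limma 3.58.1 (R 4.3.3) using a robust prior trended on level. An upper-tail F test was used, with Benjamini-Hochberg adjustment over all probes tested. The script was checked on simulated data with larger planted excesses. That check does not show whether spreads like those of Serping1 and C5ar1 would be called. Named were all 9 genes and every other listed complement gene, 5 of them without a matched probe; 1 further gene is not reported here and is left out of the counts. These genes and lists were chosen with earlier results of these data known. With 4 arrays, the number of arrays limits precision. No correlation across samples is given, since it would need at least 6.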

Additional observations from a re-analysis of the deposited data

Results flagged for a closer look

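Sets of 4 values were examined for a single array apart from the other arrays with Dixon's test, in which chance marks about 1 in 20. Of 23 sets (10 probes of the 9 genes and 13 of other complement genes), 2 were marked. For C1qc the marked value was replicate 4, at -7.15; the remaining 3 lay from -7.61 to -7.56. Its unscaled signal there, 5.32, lay within the 5.09 to 5.67 of the other arrays, whose signals lay just under their spot errors. The median of all 25457 probes above background on no array was likewise higher on replicate 4. For Masp1 it was replicate 1, at -4.70, while replicates 2 to 4 lay from -4.47 to -4.43. The SD of this Masp1 probe was 0.13, below the prior SD of 0.30 for its level.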

How the results depend on the processing

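The count of the 9 genes above background on all 4 arrays, 4, was 6 with the positive and significant mark or with 1 array sufficing (C3 and C3ar1 added, beside 59% and 57% of named genes), 5 without replicate 3, and 4 under the other alternatives, including any usable spot, a setting chosen after seeing the data. The other complement genes, 13, numbered 20 under each of those 2 settings and between 11 and 15 under the rest. No probe of the 9 genes passed the limma test except without the filter on dim probes, when 3 did (Serping1, C5ar1 and C3); under the 12 other alternatives the adjusted p ranged from 0.0903 to 0.86 for Serping1 and from 0.162 to 0.981 for C5ar1. Of all probes, 28 passed; the count was 304 after normexp background correction, 872 without the filter, 66 with 1 array sufficing, 12 with a constant prior and 16 with 1 probe per gene, and ranged from 11 to 56 when a replicate was left out. The cause was not tested; fewer or more probes were tested under some settings. Without replicate 4 the Serping1 range was 1.499. After normexp it was 0.79 and the C3 range 1.04, with 50 units added to every signal, which narrows log ranges of dim probes. Without replicate 3 the C3 range was 0.50. Without replicate 4 the C5ar1 range was 0.59. Taking the percentile over detected probes moved the median level of those probes by -1.24, quantile normalization by -0.18 and normexp by 0.11. No paired analysis was possible because there is 1 group. Dim genes, C1q, C3ar1 and C3 among them, are limited by signal over background: a probe below it does not show that its gene was silent.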
